A study of Mus musculus with 8 samples.

Results

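The genes described here are the replication-dependent histone genes of the mouse, which encode the H1 linker histones and the H2A, H2B, H3 and H4 core histones. They were chosen by symbol from the protein-coding genes of the RefSeq gene table (H1f1 to H1f6 and all numbered H2ac, H2bc, H3c and H4c genes). The symbol rule uses no measured value, but the choice of this gene group was made with earlier results of these data known. The rule gave 63 of 21887 protein-coding genes, with 6 H1, 17 H2A, 16 H2B, 12 H3 and 12 H4 genes, of which 53 lay on chromosome 13 and 10 on chromosome 3. The study mapped APOBEC2, a member of the AID/APOBEC deaminase family expressed mainly in muscle, by chromatin immunoprecipitation and sequencing in C2C12, a mouse myoblast line that forms myotubes in low serum. Cells were moved from 10% fetal bovine serum to 2% horse serum, and 3 immunoprecipitated (IP) libraries from a polyclonal rabbit antibody and 1 input were made at each of 2 times, labelled 14 h and 34 h. The growth protocol gives the harvests as 24 or 34 h, so the earlier time is uncertain. All cells were of the same line, no IP without APOBEC2 was used here, and the labels do not say whether replicates came from separate cultures. The names of the deposited peaks carry the tag GFPsh, which the labels do not explain. A peak list holds no measure of expression, so the cell type could not be checked against its markers.

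Replication-dependent histone genes are transcribed in S phase, when new chromatin is assembled on replicated DNA. Most H2A and H2B genes stand head to head, so that both start sites share a short stretch of promoter. Transcription is organised by NPAT in histone locus bodies, and the mRNAs end in a stem-loop bound by SLBP instead of a poly(A) tail. C2C12 cells leave the cell cycle as they differentiate, and these genes are normally silenced then.

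RefSeq promoter stretches of GRCm38.p6 (the assembly of mm10) were matched for 58 of the 63 genes, each running from 250 bases before the start site to 50 bases from it on. The 4 shown are the promoter under the highest histone peak, a promoter of the highest head-to-head pair, and a promoter from each of the 2 pairs with no peak in any library. They are printed 5′ to 3′ on the strand of the gene, and capitals mark matches, on either strand, to any of 7 short motifs. These were CCAAT (the NF-Y core), TATAAA (the TATA box), ATGCAAA (most of the octamer of H2B promoters), TTTGAA and its variant form TTCGAA (cores of the CHR element of G2/M genes), and the E2F-like motifs GCGGGAA and, as a further form, TTTCGCG.

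H4c1, chr13:23761200-23761499, minus strand: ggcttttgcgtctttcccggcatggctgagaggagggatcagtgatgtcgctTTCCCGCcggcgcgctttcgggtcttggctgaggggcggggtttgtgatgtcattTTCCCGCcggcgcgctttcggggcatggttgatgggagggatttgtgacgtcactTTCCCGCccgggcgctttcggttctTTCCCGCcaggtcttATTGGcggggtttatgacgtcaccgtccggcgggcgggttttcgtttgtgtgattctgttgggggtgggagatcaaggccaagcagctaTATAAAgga
H2ac12, chr13:22035594-22035893, minus strand: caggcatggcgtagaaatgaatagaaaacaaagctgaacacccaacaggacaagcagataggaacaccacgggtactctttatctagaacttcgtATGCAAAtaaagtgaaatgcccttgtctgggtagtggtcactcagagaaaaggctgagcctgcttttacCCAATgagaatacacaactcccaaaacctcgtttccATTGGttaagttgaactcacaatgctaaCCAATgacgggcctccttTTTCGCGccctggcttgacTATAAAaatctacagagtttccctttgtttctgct
H2bc23, chr13:21810150-21810449, minus strand: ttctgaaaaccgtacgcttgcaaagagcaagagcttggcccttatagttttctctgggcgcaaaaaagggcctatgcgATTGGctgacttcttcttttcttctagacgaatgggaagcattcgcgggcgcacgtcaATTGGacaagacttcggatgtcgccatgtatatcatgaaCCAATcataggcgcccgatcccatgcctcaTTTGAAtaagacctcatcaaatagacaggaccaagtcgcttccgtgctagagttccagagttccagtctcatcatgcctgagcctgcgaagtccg
H2ac1, chr13:23934187-23934486, plus strand: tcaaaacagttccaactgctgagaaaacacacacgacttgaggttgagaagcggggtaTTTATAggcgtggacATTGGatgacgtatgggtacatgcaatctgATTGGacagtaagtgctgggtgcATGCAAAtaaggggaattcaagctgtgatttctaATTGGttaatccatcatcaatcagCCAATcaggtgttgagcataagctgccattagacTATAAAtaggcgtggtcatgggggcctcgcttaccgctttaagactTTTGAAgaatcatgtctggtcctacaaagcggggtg

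The H4c1 stretch holds 4 copies of GCGGGAA, all on the opposite strand and so printed as TTCCCGC, at bases 53, 108, 163 and 188 counted from its 5′ end. None of the promoters of 17434 other protein-coding genes held 4 copies and 5.98% held at least 1. The 6 peak summits lay between base 107 and base 152. In the H2ac12 stretch the summits of the 6 libraries lay between base 241 and base 271. In that range a single TTTCGCG spans bases 247 to 253 and a TATAAA, past the annotated start site, bases 266 to 271. The stretches of H2bc23 and H2ac1 hold 3 and 4 copies of CCAAT but neither GCGGGAA nor TTTCGCG. Such matches describe letters in these windows and do not show that a factor was bound.

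A gene was counted at a time when a region formed by overlapping peaks of at least 2 of its 3 libraries lay inside the gene or within 1 kb of its start or end. Histone genes meeting this at 14 h numbered 18 of 63 (28.6%) in 10 distinct regions, and those at 34 h 30 (47.6%) in 19 regions. All 18 of 14 h were among the 30, and 3.49% of all protein-coding genes were counted at both times. Among all protein-coding genes the same rule gave 4.27% at 14 h and 8.79% at 34 h. Among the 2583 genes of at most 2 kb, nearer to histone genes in length, it gave 1.16% (30 genes) and 1.82% (47 genes). The short histone genes are in that set and are most of its 30 and 47, so the share of other short genes is lower. In the single libraries of 14 h, 14, 23 and 18 histone genes had a peak in IP 1, 2 and 3, where 3.72%, 6.5% and 3.97% of all genes had one. At 34 h the numbers were 30, 43 and 16, against 9.24%, 18.1% and 4.7%. The libraries of the times thus overlapped, and within each time their order followed the lengths of their lists, which were 768, 1327 and 797 peaks at 14 h and 2209, 5025 and 1068 at 34 h. No test was run on these counts, because the genes were chosen with earlier results of these data known.

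**Figure D1:**
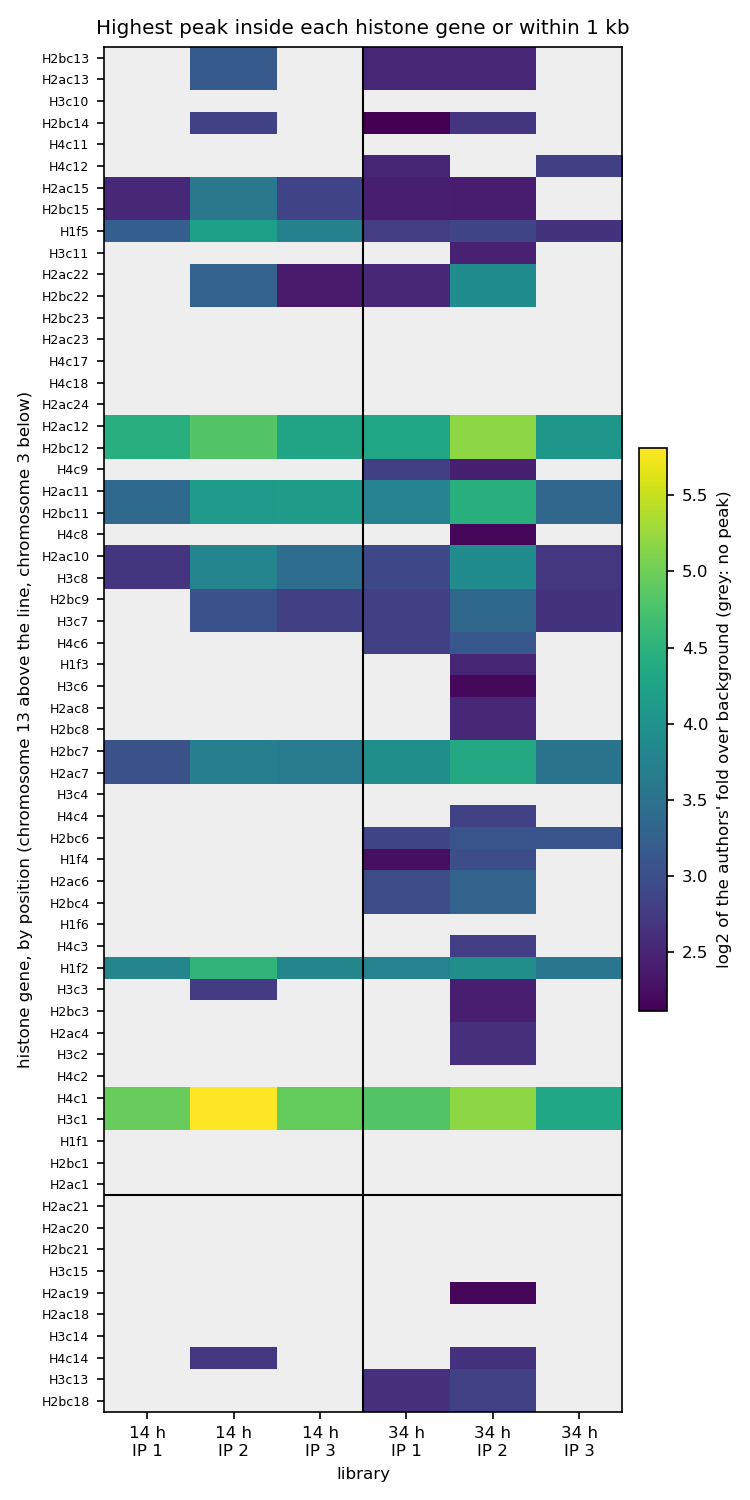
Highest peak of each of the 63 histone genes (rows, in order of position) in the 6 IP libraries (columns), coloured by log2 of the authors' fold over local background, with grey where no peak was called. H4c1 and H3c1 are brightest in every library, and most genes of chromosome 3 are grey.

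Across these lists 12 genes had a peak in all 6 libraries, 12 had one in IP 2 of 34 h alone and 19 had none in any. The 12 in IP 2 of 34 h alone were H3c11, H4c8, H1f3, H3c6, H2ac8, H2bc8, H4c4, H4c3, H2bc3, H2ac4, H3c2 and H2ac19. Those without any peak were H3c10, H4c11, H2bc23, H2ac23, H4c17, H4c18, H2ac24, H3c4, H1f6, H4c2, H1f1, H2bc1, H2ac1, H2ac21, H2ac20, H2bc21, H3c15, H2ac18 and H3c14. Of all protein-coding genes, 79.8% had none and 18.1% had a peak in IP 2 of 34 h. The 12 genes with a peak in all 6 libraries lay at 7 regions. The shares of all genes with a peak in all 6 libraries, or in IP 2 of 34 h alone, are not given here. The counts of 12 are thus no result about histone genes. The grid of peaks by gene and library shows that the strong sites were few and recurred, while weak ones appeared mostly in the longest list.

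The leading site was the stretch between H4c1 and H3c1, which encode a histone H4 and a histone H3, and it reached into H4c1. Its region (chromosome 13, 23761060 to 23761773) had an authors' fold of 31.1, 56.2 and 30.5 in IP 1, 2 and 3 at 14 h and 28.4, 36.4 and 20.2 at 34 h. Fold is the caller's ratio, at a summit, of IP over the background around it, and is the authors' own value throughout. IP 2 was the highest library at each time, and the folds of the times overlapped (mean 39.2 ± 14.6 and 28.3 ± 8.10, SD, n = 3 each). Counted from the H4c1 start site, with negative values upstream, summits fell from -131 to -118 bp at 14 h and from -144 to -99 bp at 34 h.

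Lists of unequal length cannot be compared by raw fold or rank, so each region was ranked by fold within each library among the 428 regions that had a peak in all 6. On that scale H4c1 and H3c1 stood at percentiles 98.2, 99.2 and 96.6 at 14 h and 98.7, 99.2 and 98.5 at 34 h. The mean difference was 0.78 percentile points (exact two-sided permutation test, p = 0.5).

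Of the 33 H2A and H2B genes, 12 (36.4%) were counted at 14 h and 19 (57.6%) at 34 h, whereas H3 and H4 together had 4 of 24 (16.7%) and 8 (33.3%). Of all protein-coding genes, 4.27% and 8.79% were counted. Genes that share a region are counted each. The distinct regions were 7 and 13 for H2A with H2B, and 3 and 7 for H3 with H4. At 34 h it was H2B that led, with 11 of 16 (68.8%), while H2A had 8 of 17 (47.1%) and H1 3 of 6 (50%). The 11 include H2bc6 and H2bc15, whose regions lay away from the start. By a summit within 300 bp of the start, H2B had 8 of 14 and H2A 6 of 17, against 6.47% of all genes with a promoter. The difference of 24.2 percentage points between H2A with H2B and H3 with H4 at 34 h was 10.6 without IP 1 and 6.44 without IP 2 of that time. The 9 head-to-head H2A and H2B pairs with annotated start sites had 164 to 281 bp between those sites. A summit of at least 2 libraries lay at this shared stretch in 4 pairs at 14 h and 5 at 34 h, and 3 pairs had one in all 6 libraries. The same share over other head-to-head genes is not given here.

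The pair H2ac12 and H2bc12 was the highest (chromosome 13, 22035469 to 22035923), with folds of 21.6, 28.2 and 19.4 at 14 h and 19.7, 36.2 and 16.8 at 34 h. Its summits lay at the annotated H2A start site, from -10 to 20 bp. Among the 428 shared regions it stood at percentiles 87.7, 81.9 and 82.4 at 14 h and 93.8, 98.9 and 95.9 at 34 h. All 3 libraries of 34 h were above all 3 of 14 h (96.2 ± 2.58 against 84.0 ± 3.25, SD, n = 3 each). The same was true of 14.7% of the 428 regions, and ranked by −log10 p the times overlapped here.

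At H2bc7 and H2ac7 (chromosome 13, 23574161 to 23574572) the folds were 8.15, 13.03 and 12.6 at 14 h and 15.6, 20.3 and 11.6 at 34 h. The percentile was 26.9, 31.7 and 54.8 at 14 h and 86.0, 86.7 and 82.9 at 34 h, so the times did not overlap (37.8 ± 14.9 and 85.2 ± 1.99, SD, n = 3 each). Of the 428 regions, 5 had a larger upward difference than its 47.4 percentile points, and 14.7% were higher at 34 h without overlap. This pair stood between the head-to-head pair H2ac8 and H2bc8, which had a peak in IP 2 of 34 h alone, and H3c4, which had none.

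The third pair in all 6 libraries was H2ac11 and H2bc11 (chromosome 13, 22042860 to 22043265). Its folds were 10.4, 17.2 and 17.6 at 14 h and 13.5, 22.01 and 10.1 at 34 h. Its percentile was 44.3, 49.2 and 75.6 and then 78.3, 89.4 and 72.7, and the times overlapped through IP 3.

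The weaker pairs were not in every library. H2ac22 and H2bc22 had folds of 9.69 and 5.20 in IP 2 and 3 at 14 h and 5.78 and 15.1 in IP 1 and 2 at 34 h. H2bc13 and H2ac13 had a fold of 8.92 in IP 2 at 14 h and 5.83 and 5.77 in IP 1 and 2 at 34 h. H2ac15 and H2bc15 had a peak between their start sites in IP 2 of 34 h alone, at a fold of 4.53. H2bc23 with H2ac23, and H2bc1 with H2ac1, the testis-specific H2B and H2A genes, had none.

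Single H2A and H2B start sites added H2bc9, with a fold of 8.23 and 7.02 in IP 2 and 3 at 14 h and 7.07, 10.3 and 6.31 at 34 h. H2ac10 had a peak at its own start in IP 2 of each time, at folds of 7.05 and 8.99. It was counted at both times because the region of H3c8 lay within 1 kb of its end.

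Of the 12 H3 genes, 3 were counted at 14 h and 4 at 34 h, against 4.27% and 8.79% of all protein-coding genes. Besides H3c1, H3c8 had a peak in all 6 libraries (chromosome 13, 23535093 to 23535470), with folds of 6.39, 13.7 and 10.7 at 14 h and 7.57, 15.1 and 6.50 at 34 h. Its summits lay from -138 to -106 bp of the start site, and its percentiles overlapped between the times. H3c3 had a peak in IP 2 of each time, at folds of 6.83 and 5.37. H3c7 and, at 34 h, H3c13 were counted through the regions of the neighbouring H2bc9 and H2bc18. By a summit within 300 bp of the gene's own start, H3c8 was the only one of the 10 H3 genes with a matched promoter to have a region at either time. By the same rule 3.32% of all genes with a promoter had one at 14 h and 6.47% at 34 h.

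Among the 12 H4 genes, H4c1 was the only one counted at 14 h. Of all protein-coding genes, 4.27% were counted at 14 h and 8.79% at 34 h. The 1 of 12 at 14 h is too few to set apart from that share. At 34 h H4c12, H4c9 and H4c6 were counted too, each in 2 libraries and each at its own start site. H4c12 had folds of 5.63 and 7.04 in IP 1 and 3, H4c9 of 7.02 and 5.45 in IP 1 and 2, and H4c6 of 7.02 and 8.72 in IP 1 and 2. These were far below the fold of H4c1 in the same libraries. H4c8, H4c4 and H4c3 had a peak in IP 2 of 34 h alone.

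**Figure D2:**
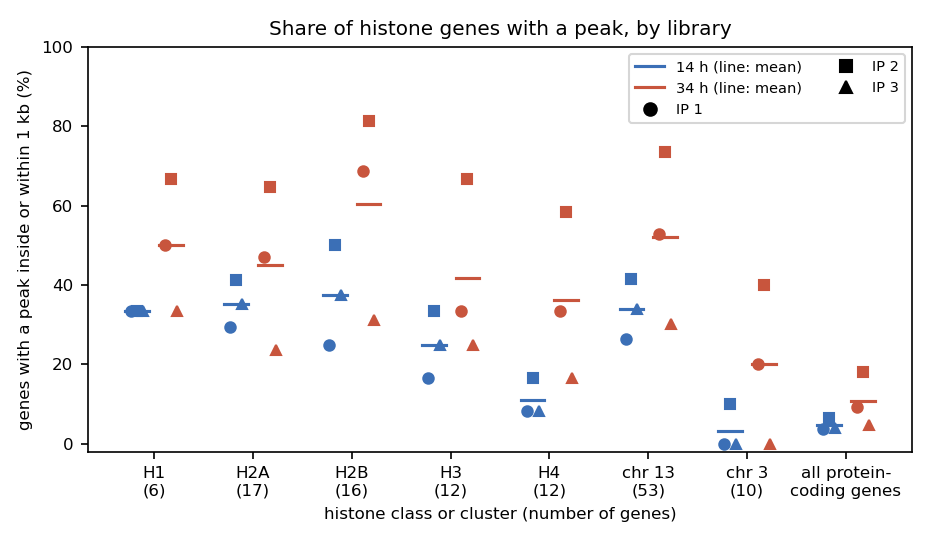
Share of genes with a peak inside or within 1 kb (vertical axis, %) for each histone class and chromosome, with the same share of all protein-coding genes on the right. Each point is 1 library, coloured by time, and lines are means of 3; H2B has the highest means of the 5 classes at 37.5% and 60.4%, and H4 the lowest at 11.1% and 36.1%.

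The plot of shares by class shows libraries of 34 h spread widely around their means. H2B genes had 60.4% ± 26.0 at 34 h and H4 genes 36.1% ± 21.0 (SD, n = 3 each). The classes share their libraries, so they are read within each one. In IP 1, 2 and 3 of 34 h the H2B share was 68.8%, 81.2% and 31.2% and the H4 share 33.3%, 58.3% and 16.7%. H2B was thus above H4 in each, as it was in each library of 14 h. These classes were picked as the highest and lowest means of the same shares, so their order is no further support. H2B was not the highest class in every library. In IP 1 of 14 h it had 25% and H1 33.3%, and in IP 3 of 34 h H1 had 33.3% as well. No test was run on these shares.

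The H1 genes differed in where their peaks lay. H1f2 and H1f5, which encode the linker histones H1.2 and H1.5, had a peak in all 6 libraries, but its summit was past the 3′ end of the gene. At H1f2 (chromosome 13, 23739521 to 23740037) the folds were 14.0, 23.2 and 14.1 at 14 h and 13.5, 15.3 and 11.8 at 34 h, with summits 230 to 253 bp beyond the annotated end. At H1f5 (21779383 to 21779668) they were 9.36, 18.4 and 13.4 and then 6.88, 7.42 and 6.31, with summits 281 to 330 bp beyond the end. A summit 338 bp past the end of H1f3 was called in IP 2 of 34 h alone.

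The H1f5 region was the only one of the 7 histone regions in all libraries whose 34 h ranks all lay below those of 14 h, at percentiles 36.6, 54.3 and 58.5 at 14 h against 22.8, 16.5 and 28.9 (49.8 ± 11.7 and 22.7 ± 6.19, SD, n = 3 each). Ranks did not overlap, in either direction, in 32.2% of the 428 regions, and ranked by −log10 p the times overlapped at H1f5. By fold, the H1f2 region stood at 66.5, 72.5 and 60.9 against 78.3, 71.1 and 83.8, with overlap. H1f4 was the only H1 gene with a region at its start site, at folds of 4.81 and 7.95 in IP 1 and 2 of 34 h. H1f1 and the testis gene H1f6 had no peak in any library.

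A like position was found at H2bc15, where summits of 5 libraries lay 321 to 385 bp past the end (21754795 to 21755062). Folds there were 5.83, 12.0 and 7.25 at 14 h and 5.37 and 5.26 in IP 1 and 2 at 34 h. The RefSeq table listed no gene of any kind, other than histone genes, within 1 kb of these 4 regions past a 3′ end. H2bc6, whose annotated transcript is far longer than that of other histone genes, had summits 35084 to 35110 bp downstream of its start in the 34 h libraries, at folds of 7.37, 8.47 and 8.49. No 14 h library had a peak there, and IP 2 of 34 h had a further one at the start itself.

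**Figure D3:**
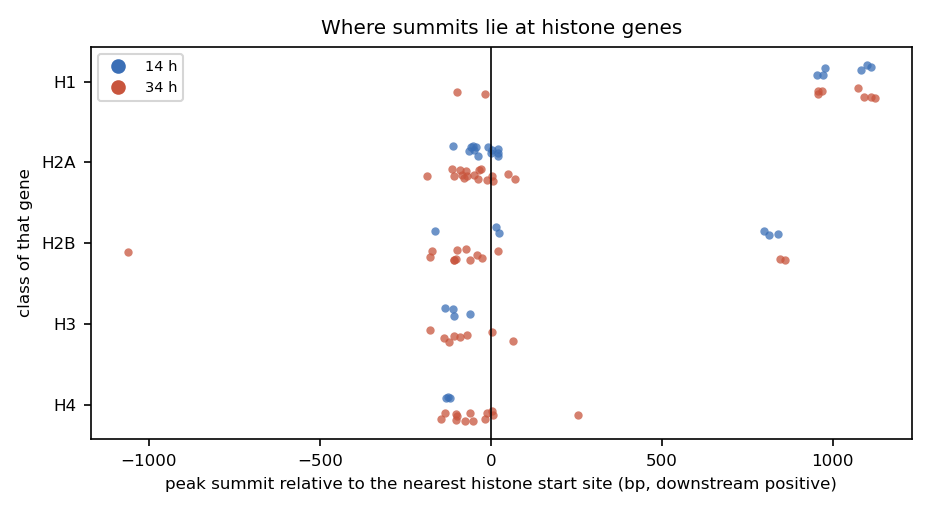
Position of each summit in a histone window relative to the nearest histone start site (horizontal axis, bp, downstream positive), by class of that gene and coloured by time, with the 3 summits inside H2bc6 off the axis. H2A, H3 and H4 summits gather just before the start, while most H1 summits lie about 1 kb downstream.

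Of 96 summits in histone windows, 74 (77.1%) lay within 300 bp of a histone start site, in windows that reach 1 kb past genes that are mostly short. Of the 90 summits in the same windows of other protein-coding genes of at most 2 kb, 74 (82.2%) lay as near to a start, so the histone share was not above that background. In the plot of summit positions this held for all 30 summits nearest to an H2A start, all 12 of H3 and all 16 of H4. It held for 14 of 23 at H2B and 2 of 15 at H1. Within that distance the median summit lay at -40 bp at H2A, -85 bp at H2B, -87 bp at H4 and -107 bp at H3. These medians pool the same sites over libraries, and H3c8 and H4c1 gave 6 summits each. A summit between paired genes was counted only at its nearest start, which by itself sets H2A and H2B apart.

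The chromosome 13 cluster and the genes of chromosome 3 differed in their counts. On chromosome 13, 18 of 53 genes were counted at 14 h (34.0%) and 28 at 34 h (52.8%). On chromosome 3 it was 0 of 10 and then 2 (20%), H2bc18 and H3c13, which share a region with folds of 6.25 and 7.12 in IP 1 and 2 (96269495 to 96269842). H4c14 had a peak in IP 2 of each time, at folds of 6.51 and 6.26, and H2ac19 in IP 2 of 34 h, at 4.54. With 10 genes, the shares on chromosome 3 move by 10 percentage points for each gene. Of all protein-coding genes, 4.27% and 8.79% were counted at the 2 times. The chromosome 3 counts, with 1 region at 34 h, are too few to set apart from those shares.

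Part of the genes have near-copies. Of the 58 promoter stretches, 11 shared at least 1 run of 50 bases with another histone promoter, and 9 shared over 50% of their runs. These 9 were H2bc23, H2ac23, H2ac24, H4c17 and H4c18 on chromosome 13 and H3c15, H3c14, H2ac19 and H2ac18 on chromosome 3. Of the 47 stretches with no shared run, 26 belonged to genes with a region at 34 h. None of the 9 had a region at either time. Of all protein-coding genes, 4.27% had one at 14 h and 8.79% at 34 h. The 0 of 9 is near those shares and no result about near-copies. How reads from such copies were placed is not given in the sources used here, and its part in the counts was not tested.

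The other genes of the chromosome 13 cluster were counted by the same rule. Between its first and last histone genes lie 51 other protein-coding genes, many of them Vmn1r pheromone receptor genes, and 0 had a region at either time. Of all genes of at most 2 kb, histone genes included, 1.16% and 1.82% had one. The 0 of 51 is near that share and no result about the cluster. They include H4bc24, for which RefSeq lists the older name Hist1h2br and whose symbol falls outside the rule. One of them, Zfp322a, had a peak in IP 2 of 34 h. The cluster also holds 77 annotated tRNA genes. A peak within 300 bp was found at 0 of them in each 14 h library and at 1, 5 and 0 in IP 1, 2 and 3 of 34 h. The first 22 histone genes, before the Vmn1r genes, and the other 31 after them each had 9 genes counted at 14 h and 14 at 34 h.

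The next comparison asked which histone genes were counted at 34 h and not at 14 h. There were 12 of 63, against 5.3% of all protein-coding genes. Among genes counted at 34 h, these were 12 of 30 histone genes and 1161 of 1924 of all protein-coding genes. Being counted at 34 h alone was thus no more common among counted histone genes than among all counted genes. The other way there were 0, which is near the 0.781% of all genes. The 12 were H2bc13, H2ac13, H2bc14, H4c12, H4c9, H4c6, H2bc6, H1f4, H2ac6, H2bc4, H3c13 and H2bc18. H2bc13, H2ac13 and H2bc14 had a peak in IP 2 of 14 h as well. The H2ac6 and H2bc4 region had folds of 7.80 and 9.78 in IP 1 and 2, and that of H2bc14 had 4.33 and 6.46. Of the 12, 10 rested on IP 1 and 2 of 34 h together and had no peak in IP 3. Without IP 1 of 34 h the count was 1 (H2bc6), without IP 2 it was 2 (H4c12 and H2bc6) and without IP 3 it was 11. Cut to an equal length of 768 peaks, taken by −log10 p, the lists gave 2 (H2ac6 and H2bc4), and 4 were then counted at 14 h alone (H2ac15, H2bc15, H2ac22 and H2bc22). At that length 18 histone genes were counted at 14 h and 16 at 34 h. The shares of all genes at that length are not given here.

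**Figure D4:**
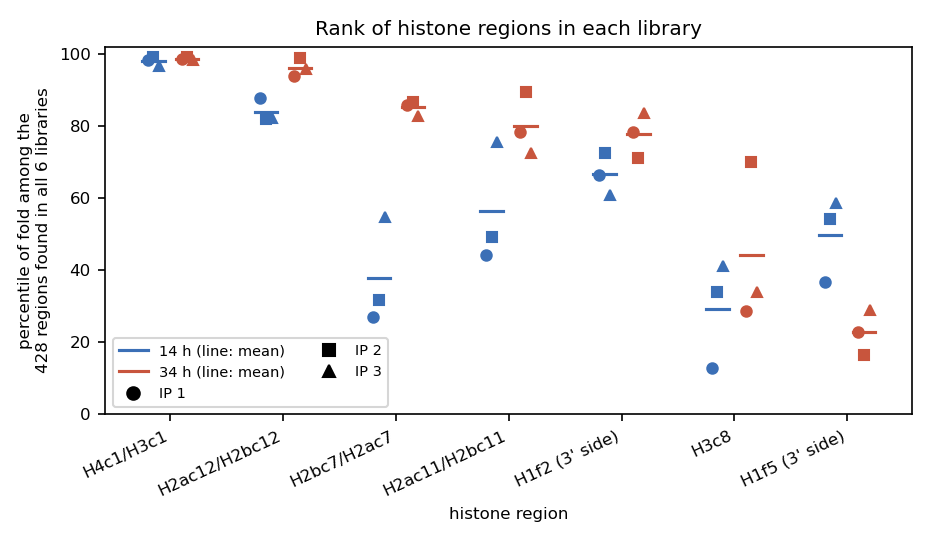
Percentile of fold (vertical axis) of the 7 histone regions with a peak in all 6 libraries, among the 428 such regions of the genome. Each point is 1 library, coloured by time, and lines are means of 3; H2bc7 with H2ac7 and H2ac12 with H2bc12 are higher at 34 h without overlap, and H1f5 is lower.

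The plot of ranks holds the comparison that list length affects least. Of the 7 histone regions in all 6 libraries, 3 had percentiles that did not overlap between the times, and the same was true of 32.2% of the 428 regions. The 3 were H2bc7 with H2ac7 and H2ac12 with H2bc12, both higher at 34 h, and H1f5, lower. Higher ranks without overlap at 34 h were found in 14.7% of all regions. Each of the 3 had p = 0.1 by the exact two-sided permutation test, the smallest that 3 libraries against 3 allow, and 0.310 after Benjamini-Hochberg adjustment over the 428 regions. None therefore passed the threshold of 0.05. Ranked by −log10 p instead of fold, H2bc7 with H2ac7 was the only one without overlap, at a mean percentile of 45.3 at 14 h and 74.9 at 34 h.

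The motifs were counted by class and by the presence of a start-site region. CCAAT was in all 17 H2A, 14 H2B, 10 H3 and 6 H1 promoters matched and in 3 of 11 H4 promoters, against 38.9% of other protein-coding promoters. TATAAA was in 34 of 58 histone promoters (58.6%), against 13.2% of the others. TTTGAA was in 11 of 14 H2B and 10 of 17 H2A promoters, against 16.4% of the others. ATGCAAA was in 6 of 14 H2B and 6 of 17 H2A promoters, which partly overlap, against 4.10%. TTCGAA was in 1 of 58, against 1.87%.

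GCGGGAA was found among the histone promoters only at 5 H4 genes, of which H4c1, H4c12 and H4c6 had a region at 34 h. At 14 h H4c1 alone had one, and H4c9 had one at 34 h without the motif. TTTCGCG was in 13 histone promoters, all of H2A or H2B genes, against 1.10% of the others. Counting promoters that overlap once, 8 of 49 stretches held TTTCGCG, and 4 of them had a start-site region at 14 h and 5 at 34 h. Of the 41 without it, 3 and 10 did. The stretches of H2ac12 with H2bc12, H2bc7 with H2ac7, and H2ac11 with H2bc11, the pairs with a peak in all 6 libraries, each held it. H2ac21 and H2ac20 on chromosome 3 held it without a peak in any library. For the other motifs, start-site regions at 34 h were counted in the same way, with and then without a match. They numbered 12 of 41 and 3 of 8 for CCAAT, and 9 of 28 and 6 of 21 for TATAAA. For TTTGAA they were 6 of 19 and 9 of 30, and for ATGCAAA 4 of 10 and 11 of 39. For GCGGGAA they were 3 of 5 and 12 of 44, and for TTCGAA 1 of 1 and 14 of 48. These counts are descriptions without a test.

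Genes for the transcription of histone genes and the 3′ processing of their mRNAs also had regions, 10 of 25 at 14 h (40%) and 8 at 34 h (32%), where 4.27% and 8.79% of all protein-coding genes had one. Hinfp, a zinc finger activator of H4 genes, had folds of 15.5, 23.3 and 15.8 at 14 h and 7.83 and 10.5 in IP 1 and 2 at 34 h. Casp8ap2, the FLASH protein of histone locus bodies, had 14.5 and 16.0 in IP 1 and 2 at 14 h and 10.3, 12.9 and 7.29 at 34 h. Slbp, the stem-loop binding protein, had 8.83, 9.99 and 6.96 and then 7.69, 7.65 and 7.57. Pou2f1, Cstf3, Eri1 and Nfya were counted at both times, Ccne1, Nfyc and Lsm11 at 14 h alone and Nfyb, an NF-Y subunit, at 34 h alone. Npat had a peak in IP 2 of 34 h alone, at a fold of 4.75. Of 11 replacement histone genes, which are expressed outside S phase as well, 4 were counted at 14 h (36.4%; H2az1, Cenpa, H2ax and H2az2) and 5 at 34 h (45.5%), with H3f3b added, against the same 4.27% and 8.79%.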

How the data were processed

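The submitters' processing notes name Subread, MACS2 and the mm10 build, without roles; their versions and the threshold for a peak were not stated. Peak names, per the deposited lists, pair each IP library with the input of its time, so peaks were called per library. The deposited columns hold a fold (a linear ratio over local background), −log10 p, −log10 q, an integer score and the summit offset. Deposited summit lists matched the peak lists in all 6 libraries. The lists give no read totals, so depth is unknown and a gene without a peak is not shown to be unbound. The 2 inputs have no peak list here.

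Genes came from RefSeq on GRCm38.p6, on chromosomes 1 to 19, X and Y. Strand and start sites came from its promoter table. Peaks were merged at 1 bp of overlap. Ranks were compared by exact two-sided permutation over the 6 libraries, with Benjamini-Hochberg adjustment, in Python 3.11.15 with pandas 2.3.3; this step and the merging were tested on simulated data. p-values measure only the spread between these libraries, which may be technical. The genes and lists were chosen with earlier results of these data known. Genes named are those with a peak in all 6 libraries, those counted at 1 time only, those on chromosome 3 with a peak, all H1 genes and the highest regions. Other histone genes named singly, and the promoter of H2ac1, were chosen after their values were seen. Genes of shared promoters are not independent. Alternatives were −log10 q of at least 5, lists of equal length, all 3 or any library, no window or 2 kb, summits in place of peaks, 50% reciprocal overlap, −log10 p for ranks, each library left out, and a replicate block. A summit within 300 bp of the start site was chosen after seeing the data.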

Additional observations from a re-analysis of the deposited data

How the results depend on the processing

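The count of histone genes at 14 h was 10 with no window and 11 with a summit within 300 bp of the start site, a rule chosen after seeing the data, where 18 were counted as reported; leaving out 1 library gave 14 to 18. The 34 h count of 30 was 16 with lists of equal length, 15 with all 3 libraries required, and 15 to 29 with 1 library left out. At equal length the order of the times was reversed, with 18 genes at 14 h and 16 at 34 h. The 12 genes of 34 h alone became 2 with equal length, 3 with all 3 libraries and 21 with any library. With 1 library left out they were 1 to 16. The cause of these changes was not tested, beyond the fewer peaks or libraries these settings use. The shares of all protein-coding genes under these settings are not given here, so the recounts are no result about histone genes.

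The share on chromosome 13 minus that on chromosome 3 at 34 h was 32.8 percentage points. It stayed positive under every setting run, at 29.1 (−log10 q of at least 5), 30.2 (equal length), 28.3 (all 3), 35.5 (any), 38.5 (2 kb), 30.9 (summits), 25.3 (reciprocal overlap) and 25.5 (start sites), and 28.3 to 30.9 with 1 library left out. These settings recount the same peaks over only 10 genes on chromosome 3, so the shared sign is no further support for a difference. The H2A and H2B share minus the H3 and H4 share was 24.2 points. It was 13.6 with equal length, 10.6 with all 3 libraries and 6.06 with any, and 6.44 to 28.4 with 1 library left out.

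Histone regions without overlap of ranks numbered 3 of 7 (138 of 428 over all regions), 1 when ranked by −log10 p (116 of 428), and 3 to 5 with 1 library left out (171 of 432 to 224 of 506 over all regions). The difference of H4c1 and H3c1 ran from 0.07 to 1.35 percentile points with 1 library left out. With the replicate number as a block, 3 of 7 histone regions and 204 of all 428 had one sign in every pair, and H4c1 with H3c1 kept 0.78 points (exact sign-flip p = 0.5; 3 pairs cannot go below 0.25). Same-numbered libraries correlated at 0.05, 0.26 and 0.08 in their deviations over the 428 regions, not each above 0.1, and IP 1 of 14 h correlated best with IP 3 of 34 h (0.12). IP 2 and 3 of 14 h each correlated best with their own number, and libraries of unlike number ran from -0.19 to 0.12. The numbers were not taken as pairs, though pairing is not excluded.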
